A study of Mus musculus with 12 samples.

Results

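Gene expression in the mouse urinary bladder early in the subjective night was compared with that early in the subjective day. The 4 early night arrays were those labelled circadian time (CT) 12 and CT16, and the 4 early day arrays those labelled CT0 and CT4, so that 8 of the 12 arrays of the series entered. The whole series covers 6 times, 4 h apart, with 2 arrays at each time, and asks whether the bladder keeps a daily rhythm of gene expression. All mice were female C57BL/6, 10 weeks old, and had spent 2 weeks in a cycle with 12 h light and 12 h dark before constant darkness. No gene was altered and no agent was given in any group. Early day is the start of the rest phase of mice, and early night the start of their active phase. The labels do not say how long darkness lasted, nor whether an array held 1 bladder or a pool, so p-values measure the spread between these arrays, which may be technical. CT16 is missing from the times named in the series' design text, although 2 arrays are labelled with it. Levels are log2 of the processed Cy3 signal minus the 75th percentile of the same array, so that 0 equals that percentile, and a level is compared here only with other levels of the same probe.

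The circadian clock of mammalian cells is a loop in which the activators BMAL1 (encoded by Arntl) and CLOCK bind E-box sequences and switch on their own repressors, the period and cryptochrome genes. A second loop, of the repressors REV-ERB and the activators ROR, acts on RRE sequences and sets the rhythm of Arntl, and the PAR bZIP factors Dbp, Tef and Hlf act on D-boxes. In peripheral organs the loop is coupled to the body by glucocorticoid hormones, temperature and feeding, and in the bladder it has been tied to the difference in urine storage between rest and activity.

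The arrays were alike in signal. The 75th percentile of intensity was 887 to 956 on the 8 arrays, and 64.4% to 70.2% of the 43379 spots were well above background. Across genes, replicate arrays had correlations of 0.985 to 0.994 (Pearson's r), and genes are not independent replicates. The tissue label matched its markers: 24 of 24 urothelial and 20 of 20 smooth muscle markers tested were well above background on all 8 arrays. The second CT0 array stood apart on the first principal component. It also had 228 outlier spots, against 70 to 82 on the other arrays compared. The CT0 and CT4 arrays shared slide 1, CT12 lay on slide 2 with CT8, and CT16 lay on slide 3 with CT20. No slide therefore held both early night and early day arrays, no within-slide value of the comparison exists, and slide and group cannot be told apart in full. Hepatocyte and adipocyte markers varied widely between arrays. The summed linear level of 21 hepatocyte markers ranged from 23.4 to 115 at early night and from 36.2 to 46.7 at early day, and that of 15 adipocyte markers from 516 to 950 and from 308 to 913, on a scale where 1 is the 75th percentile of the array. None of the markers in either list passed the threshold.

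Bladder mRNA read higher on early night than early day arrays for the clock repressor Per2, the glucocorticoid-induced gene Tsc22d3 and the cilium gene Cys1. It read lower for the matrix genes Spon2 and Has2. Per2 was 3.77-fold higher (range at 1 SE 3.30 to 4.30) and Spon2 4.98-fold lower (4.23 to 5.87), with 4 arrays in each group. A second Per2 probe differed by only 0.23 ± 0.16 (log2). Among 18025 genes tested, 10 were higher at early night (0.0555%) and 6 lower (0.0333%), 16 in all (0.0888%), at a limma adjusted p under 0.05. An unadjusted p under 0.05 was found for 1855 genes, these 16 included. The 4 early night arrays all lay above the 4 early day arrays for 542 genes (3.01%) and all below for 576 (3.20%). In the authors' deposited value table the same fit gave 18 genes higher and 5 lower. With slide as a random block in limma 0 genes passed, and 1004 had an unadjusted p under 0.05. Leaving out 1 array in turn gave 0 genes (without CT4 replicate 1, CT4 replicate 2, CT12 replicate 1 or CT16 replicate 1), 1 gene (without CT0 replicate 1 or CT16 replicate 2), 4 genes (without CT12 replicate 2) or 10 genes (without CT0 replicate 2), with limma and 1259 to 2100 genes at an unadjusted p under 0.05. In the fits without 1 array all 16 genes kept their direction, and their unadjusted p (limma) was at most 0.000234. Where the groups do not overlap, leaving out an array cannot turn the direction, so the kept direction adds no support.

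**Figure D1:**
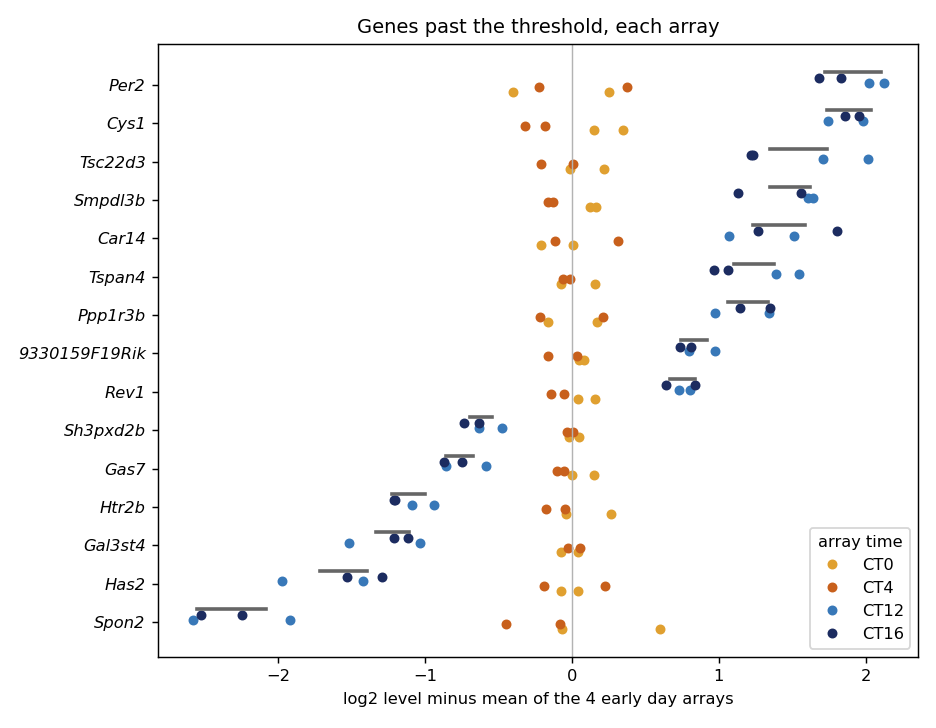
Level of 15 genes past the threshold on each of the 8 arrays, minus the mean of the 4 early day arrays (x axis, log2); grey bars span the early night minus early day difference ± 1 SE. For every gene the early night points lie on 1 side of all the early day points.

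Per2 encodes a period protein that represses BMAL1 and CLOCK (probe on chromosome 1, 91323914 to 91323973, array coordinates on mm7). Its level was -2.37 and -1.72 at CT0, -2.19 and -1.59 at CT4, 0.16 and 0.05 at CT12, and -0.14 and -0.28 at CT16. All 4 night arrays stood above all day arrays, and the difference was 1.91 ± 0.19 (log2, SE, n = 4 and 4, limma adjusted p = 0.0231). A second Per2 probe gave only 0.23 ± 0.16 (limma, unadjusted p = 0.181), so the probes disagreed.

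Cys1, for cystin, a protein of the primary cilium membrane that is mutated in a mouse model of polycystic kidney disease, had the lowest p of all genes tested (chromosome 12, 22502354 to 22502413). Its levels were 2.06 and 1.87 at CT0, 1.53 and 1.40 at CT4, 3.70 and 3.46 at CT12, and 3.67 and 3.57 at CT16. The night arrays lay close together and well above the day arrays. The difference was 1.88 ± 0.15, or 3.69-fold (adjusted p = 0.0231). Tspan4, for a tetraspanin membrane protein (chromosome 7, 137910580 to 137910639), stood at 3.57 and 3.80 at CT0, 3.63 and 3.58 at CT4, 5.04 and 5.19 at CT12, and 4.70 and 4.61 at CT16. CT12 exceeded CT16, and both exceeded the day arrays, with a difference of 1.24 ± 0.14, or 2.36-fold (adjusted p = 0.0353).

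Tsc22d3 encodes GILZ, a leucine zipper protein induced by glucocorticoids (chromosome X, 135259067 to 135259126). It read 1.88 and 2.10 at CT0, 1.90 and 1.68 at CT4, 3.60 and 3.90 at CT12, and 3.12 and 3.10 at CT16. All night arrays were higher, CT12 most so. The difference was 1.54 ± 0.19, or 2.91-fold (adjusted p = 0.0487), and its other probes gave 1.46 and 1.49. Ppp1r3b, for a subunit that directs protein phosphatase 1 to glycogen (chromosome 8, 34152525 to 34152584), stood at -1.43 and -1.76 at CT0, -1.39 and -1.82 at CT4, -0.26 and -0.63 at CT12, and -0.25 and -0.46 at CT16. No night array fell to the day range, and the difference was 1.20 ± 0.13 (adjusted p = 0.0353).

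Smpdl3b encodes a membrane-anchored phosphodiesterase related to acid sphingomyelinase (chromosome 4, 132112188 to 132116506). Its levels were -1.72 and -1.68 at CT0, -2.004 and -1.98 at CT4, -0.24 and -0.20 at CT12, and -0.28 and -0.71 at CT16. The second CT16 array was lower than the other night arrays and still above every day array, and the difference was 1.48 ± 0.14 (adjusted p = 0.0231). Car14, for a membrane-bound carbonic anhydrase (chromosome 3, 95771886 to 95771945), stood at -1.14 and -1.35 at CT0, -0.83 and -1.26 at CT4, -0.08 and 0.37 at CT12, and 0.66 and 0.12 at CT16. Its groups were separate, by 1.41 ± 0.18 (adjusted p = 0.0487). Car14 was the 1 of 28 genes of water, urea and ion transport that passed, against 0.0888% of all genes. The median difference of that list was -0.02. Rev1, for a DNA polymerase that copies past damaged bases (chromosome 1, 38294565 to 38295041), read -1.63 and -1.51 at CT0, -1.81 and -1.73 at CT4, -0.86 and -0.94 at CT12, and -0.83 and -1.03 at CT16. The night arrays were higher by 0.75 ± 0.09, or 1.69-fold (adjusted p = 0.0388), and a second probe gave 0.47 ± 0.19. Another of the higher genes carries a clone name, 9330159F19Rik, and differed by 0.83 ± 0.09.

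Spon2, for the secreted matrix protein mindin, fell most among the genes past the threshold (chromosome 5, 32276714 to 32276773). Its levels were 3.97 and 4.64 at CT0, 3.58 and 3.96 at CT4, 2.12 and 1.46 at CT12, and 1.51 and 1.79 at CT16. Every night array lay far below every day array. The difference was -2.32 ± 0.24 (adjusted p = 0.0231), and a second probe gave -2.39. Has2, for the enzyme that makes the matrix polymer hyaluronan (chromosome 15, 56729040 to 56729099), stood at -1.44 and -1.32 at CT0, -1.55 and -1.14 at CT4, -2.79 and -3.33 at CT12, and -2.65 and -2.90 at CT16. Every night array was below every day array, with a difference of -1.56 ± 0.16, or 2.94-fold lower at night (adjusted p = 0.0231). A second Has2 probe gave -0.96 ± 0.26.

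Gal3st4 encodes an enzyme that adds sulphate to galactose on glycans (chromosome 5, 137210942 to 137211001). It read -2.68 and -2.80 at CT0, -2.67 and -2.75 at CT4, -3.76 and -4.24 at CT12, and -3.84 and -3.94 at CT16. The day arrays lay close together and above all night arrays, and the difference was -1.22 ± 0.11, or 2.33-fold lower at night (adjusted p = 0.0231). Sh3pxd2b, for the adaptor TKS4 of podosomes, the actin-rich contacts at which cells degrade matrix (chromosome 11, 32379616 to 32379675), stood at -0.43 and -0.36 at CT0, -0.44 and -0.40 at CT4, -0.88 and -1.04 at CT12, and -1.04 and -1.14 at CT16. The groups were separate, with a difference of -0.62 ± 0.07 (adjusted p = 0.0435). Gas7, for an actin-binding protein (chromosome 11, 67765624 to 67765683), read -3.96 and -4.11 at CT0, -4.16 and -4.21 at CT4, -4.69 and -4.97 at CT12, and -4.98 and -4.86 at CT16. No night array reached the day range, and the difference was -0.77 ± 0.09 (adjusted p = 0.0435), and a second probe gave -1.08. Htr2b, for a serotonin receptor (chromosome 1, 86011263 to 86011322), was dim, at -5.13 and -4.82 at CT0, -5.27 and -5.13 at CT4, -6.03 and -6.18 at CT12, and -6.30 and -6.29 at CT16. Its groups did not overlap and differed by -1.11 ± 0.11 (adjusted p = 0.0231). Gas7 and Htr2b did not pass with another background correction (normexp) or in the authors' value table. Over the settings other than leaving out 1 array, Gas7 ranged from -0.84 to -0.33 and Htr2b from -1.22 to -0.27.

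For each of the 14 genes with a symbol described above the exact permutation test over the 70 ways of dividing 8 arrays into 4 and 4 gave a two-sided p of 0.0286, the smallest that this design allows. The rule that named them asked for groups without overlap, which fixes this p, so it adds no support.

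Of 43 genes of the extracellular matrix and its turnover, Spon2 and Has2 passed and the other 41 did not, against 0.0888% passing of all genes. The median difference of the list was -0.01, against 0.00 over all genes tested. Eln, for elastin, stood at -0.28 and 1.12 at CT0, -1.21 and -0.71 at CT4, -2.08 and -2.09 at CT12, and -1.92 and -2.31 at CT16. Its night arrays all lay below its day arrays, which ranged widely (difference -1.83 ± 0.44, adjusted p = 0.233). The fibrillar collagen genes Col1a1, Col1a2 and Col3a1 differed by 0.14, 0.15 and 0.20, with overlap. Summed levels of 14 fibroblast markers were 1032 to 1370 at early night and 1059 to 1199 at early day. All 8 mesothelial markers were lower at early night, against 9010 of 18025 genes tested, with a median of -0.36. Their summed levels were 79.9 to 101.8 at early night and 101.1 to 115.3 at early day, with no marker past the threshold. The part of mesothelial cells in the lower Has2 and Spon2 was not tested. In whole bladder, fewer cells of a type and less RNA per cell cannot be told apart.

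Among the clock activators, 0 of 4 passed the limma threshold, and 3 of 4 had an unadjusted p under 0.05, against 10.3% of all genes. Arntl read 0.68 and 0.27 at CT0, 0.25 and -0.26 at CT4, -1.97 and -2.45 at CT12, and -0.78 and -0.60 at CT16. All night arrays lay below all day arrays, but CT12 was far lower than CT16, and this spread within the night group entered the error (difference -1.69 ± 0.43, adjusted p = 0.248). In a limma fit of 6 time means on all 12 arrays, whose error leaves out that spread, Arntl passed at an adjusted p of 0.0136. Npas2, a partner of BMAL1 like CLOCK, differed by -1.05 ± 0.28 (adjusted p = 0.261), and Clock by -0.35 ± 0.14 (adjusted p = 0.452), both with overlap. Other Clock probes gave -0.78 ± 0.15, -0.35 ± 0.22 and -0.38 ± 0.17. Arntl2 differed by -0.09.

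Of 13 clock repressors and kinases 1 passed, Per2, against 0.0888% of all genes. Of the 13, 4 lay above the early day range without overlap, against 3.01% of all genes. Per1 stood at -0.31 and -0.18 at CT0, 0.09 and -0.02 at CT4, 1.95 and 2.21 at CT12, and 0.11 and 0.35 at CT16. Its CT16 arrays were barely above CT4, and the pooled difference was 1.26 ± 0.47 (adjusted p = 0.427). Per3 read -6.33 and -6.00 at CT0, -5.90 and -5.31 at CT4, -3.46 and -3.75 at CT12, and -4.97 and -5.18 at CT16. Its groups did not overlap (1.54 ± 0.42, adjusted p = 0.265). Cry1, for a cryptochrome repressor, was -3.11 and -3.30 at CT0, -3.83 and -3.93 at CT4, -2.74 and -3.05 at CT12, and -2.67 and -2.81 at CT16. Its night arrays were all higher, with a difference of 0.72 ± 0.19 (adjusted p = 0.263). Ciart, for the repressor CHRONO, had the largest difference of this list, 2.19 ± 0.73 (adjusted p = 0.365). It stood at -5.01 and -4.12 at CT0, -3.23 and -2.71 at CT4, -0.72 and -0.16 at CT12, and -2.71 and -2.73 at CT16, so that CT4 and CT16 overlapped. The kinase genes Csnk1d and Csnk1e differed by 0.07 each.

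**Figure D2:**
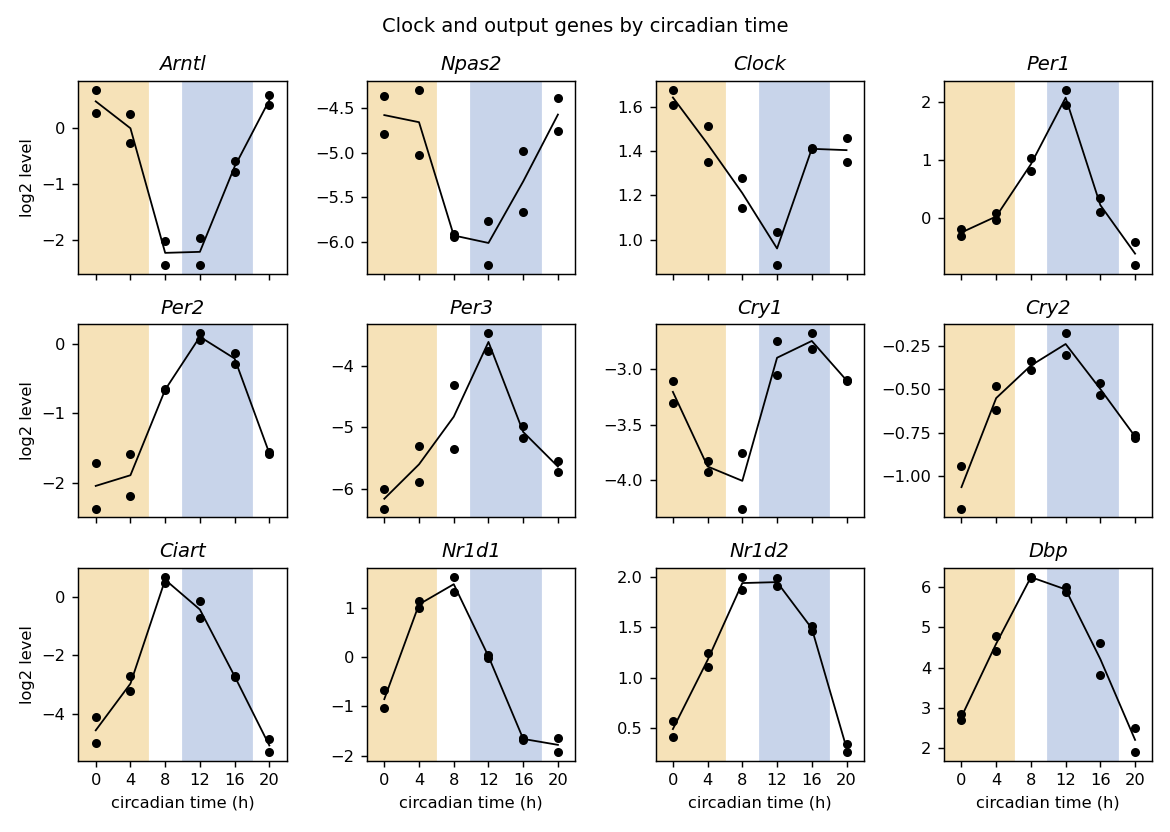
Levels (log2, y axis) of 12 clock and output genes on all 12 arrays against circadian time in h, with lines through the means of the 2 arrays of a time; the early day times are shaded yellow and the early night times blue. Levels of Per2 lie close together across both times of each shaded pair, while those of Nr1d1 and Ciart do not.

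Among PAR bZIP factors and other clock outputs 2 of 16 passed, Cys1 and Tspan4, against 0.0888% of all genes, 9 lay above the early day range without overlap and 2 below, against 3.01% and 3.20%, and the median difference was 0.68. This list was drawn up with earlier results of these arrays in view, so neither its counts nor its direction are independent evidence. Its name is a label, and a clock role of each member was not tested. Usp2, for a ubiquitin protease, read -2.48 and -2.82 at CT0, -1.88 and -2.10 at CT4, -0.67 and 0.17 at CT12, and -0.42 and -0.68 at CT16. Its arrays were separate and the test just missed (1.92 ± 0.25, adjusted p = 0.0642). Hlf differed by 1.56 ± 0.21 (adjusted p = 0.0677), Plk5, of the polo-like kinase family, by 2.23 ± 0.35 (adjusted p = 0.0976), and Tef by 1.15 ± 0.28 (adjusted p = 0.231), all without overlap. Dbp stood at 2.71 and 2.86 at CT0, 4.41 and 4.77 at CT4, 5.88 and 5.99 at CT12, and 4.60 and 3.82 at CT16. CT4 and CT16 overlapped, and the pooled difference was 1.39 ± 0.65 (adjusted p = 0.522). Nfil3, for a repressor that acts on the same D-boxes, differed by -0.59 ± 0.43 with overlap.

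The early night arrays and the early day arrays each joined times 4 h apart, and the change from CT0 to CT12 was therefore set against that from CT4 to CT16, pairs that share no array. The change differed for 1 gene of 18025 (0.00555%), Nr1d1, which encodes the repressor REV-ERB alpha (chromosome 11, 98878251 to 98878753), and 2941 genes had an unadjusted p under 0.05. Nr1d1 read -1.03 and -0.68 at CT0, 0.99 and 1.14 at CT4, 0.04 and -0.02 at CT12, and -1.68 and -1.65 at CT16. Its CT12 arrays stood above its CT0 arrays (0.87 ± 0.13) and its CT16 arrays below its CT4 arrays (-2.73 ± 0.13). The difference between these changes was 3.59 ± 0.19 (limma adjusted p = 0.0362), whereas its pooled difference was -0.93 ± 0.64 (adjusted p = 0.675). Without CT0 replicate 1 the count of such genes was 13, and without any 1 of the CT4, CT12 or CT16 arrays it was 0, with 1655 to 2600 genes at an unadjusted p under 0.05.

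Other clock genes had differences of unequal size or opposite sign at the earlier and the later pair, none past the threshold for the test between pairs. Dbp differed by 3.15 and -0.38, Ciart by 4.13 and 0.25, Per1 by 2.32 and 0.20, Arntl by -2.69 and -0.69, and Nfil3 by -1.79 and 0.61. The limma adjusted p of the difference was 0.199 to 0.221 for these 5 genes. Each gene past the pooled threshold had the same sign at both pairs. Where the groups do not overlap this is fixed in advance, so the shared sign is no separate result. Spon2 changed by -2.52 and -2.12, Cys1 by 1.61 and 2.16, Per2 by 2.15 and 1.68, and Tsc22d3 by 1.76 and 1.33. The pooled test counts the spread between the times of a group as error; with 6 time means on 12 arrays, Arntl, Ciart, Dbp, Hlf, Nr1d1, Nr1d2, Per1, Tef and Usp2 passed for early night minus early day. Nr1d2, for REV-ERB beta, read 0.41 and 0.57 at CT0, 1.11 and 1.25 at CT4, 1.99 and 1.91 at CT12, and 1.51 and 1.47 at CT16. All its night arrays were higher (pooled difference 0.89 ± 0.22, adjusted p = 0.233). Rora, for an activator at RRE sequences, differed by 0.17 ± 0.09 with overlap.

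**Figure D3:**
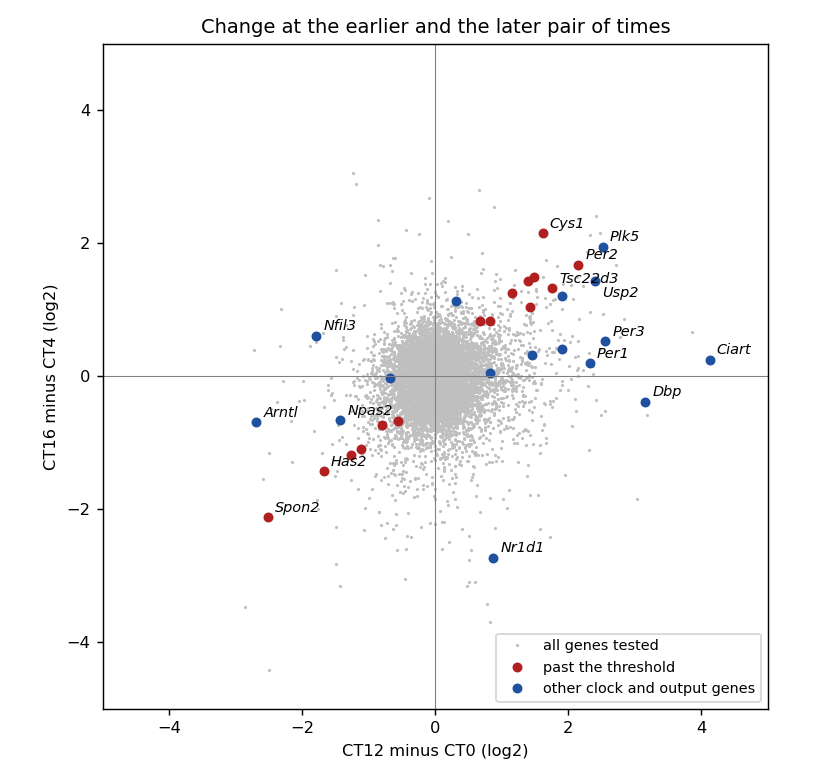
Change from CT0 to CT12 (x axis, log2) and from CT4 to CT16 (y axis, log2) for 18025 genes (grey), with 15 genes past the pooled threshold in red and other clock and output genes in blue. Red points have the same sign on both axes, which groups without overlap fix in advance. Nr1d1 lies at 0.87 and -2.73, and Ciart at 4.13 and 0.25.

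The CT8 and CT20 arrays did not enter the comparison, and their levels are set beside it here. They lie on slides 2 and 3, whereas all early day arrays lie on slide 1. Time and slide therefore cannot be told apart in their distance from the early day mean. At CT8, 11 of the 16 genes past the threshold stood more than 50% of the way from the early day to the early night mean. At CT20 the level was under 50% of that way for 12 of 16. The same shares over all genes were not computed, so neither count can be judged against them. Spon2 was 2.50 and 2.74 at CT8 and 3.79 and 3.60 at CT20, and Per2 was -0.67 and -0.65 at CT8 and -1.56 and -1.59 at CT20. Both had thus come most of the way back to their day levels by CT20, whereas Cys1, at 2.79 and 2.71, and Has2, at -2.18 and -2.12, stood nearer the middle. Htr2b was at -6.36 and -6.75 at CT20, below its night levels, and its mean at CT8 was -6.53. Its mean level was thus lower at every time on slides 2 and 3 than at the early day times on slide 1. The part of slide in this was not tested. On slide 3, the CT16 arrays lay apart from the CT20 arrays, in the direction of early night minus early day, for 15 of the 16 genes, all but Htr2b, and for 42.8% of all genes. On slide 2, the CT12 arrays lay apart from CT8 in that direction for 11 of 16 and for 32.4% of all genes. The CT12 and CT16 arrays were used in choosing the 16, so these counts are a description only.

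Promoters were searched because several of the genes above belong to the clock loop. The windows ran from 250 bases before to 50 after the start in RefSeq on GRCm38.p6, and both strands were read. The E-box CACGTG was present for 3 of the 9 genes past the threshold that have an entry (Tspan4, Rev1 and Smpdl3b). A gene can have several windows. It was present in 3 of the 12 windows of these 9 genes, and in 7.15% of all 32851 windows. Among 27 other clock and output genes with an entry the E-box was present for 6, in 7 of their 35 windows. The D-box TTATGNAA was found in 0 of the 12 and 5 of the 35 windows (3.38% of all windows), and the RRE TNGGTCA in 1 and 7 (10.96%). The glucocorticoid response element was found in 1 of the 12, that of Car14, and 0 of the 35 (3.11%). The cyclic AMP response element TGACGTCA was found in 1 and 1 (1.79%). The glucocorticoid response element was searched as ACA, 3 free bases, TGT, 1 free base and C; its 2 matches in Car14 overlap each other. A match is a description of letters, not of binding. The following stretches upstream of the start are shown, with E-boxes or D-boxes in capitals. Tspan4 and Rev1 were higher at early night and carry 1 E-box each, Ciart had the largest difference among the clock repressors and carries 3, and Per3 carries 2 D-boxes; its stretch also holds its RRE match, TGACCAA, left in lower case.
Tspan4, chr7:141476289-141476374, plus strand: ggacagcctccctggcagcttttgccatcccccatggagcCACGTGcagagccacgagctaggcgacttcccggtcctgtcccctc
Rev1, chr1:38129826-38129911, minus strand: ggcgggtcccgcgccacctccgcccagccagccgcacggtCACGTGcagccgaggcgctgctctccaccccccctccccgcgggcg
Ciart, chr3:95882229-95882384, minus strand: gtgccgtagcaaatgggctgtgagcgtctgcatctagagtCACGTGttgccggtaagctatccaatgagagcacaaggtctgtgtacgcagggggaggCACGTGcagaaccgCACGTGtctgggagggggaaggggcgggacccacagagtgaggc
Per3, chr4:151044776-151044910, minus strand: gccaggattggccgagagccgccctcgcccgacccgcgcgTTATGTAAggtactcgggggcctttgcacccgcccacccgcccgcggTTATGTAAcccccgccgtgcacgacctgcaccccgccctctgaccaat

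Of 29 glucocorticoid-responsive genes 1 passed, Tsc22d3, against 0.0888% of all genes. Of the 29 differences 22 were positive, against 9015 of 18025 over all genes, and the median was 0.31. Fkbp5, a chaperone of the steroid receptor, read -2.31 and -2.31 at CT0, -1.52 and -2.30 at CT4, -1.54 and -0.84 at CT12, and -0.95 and -0.98 at CT16. The first CT4 array overlapped the lowest night array, and the difference was 1.03 ± 0.23 (adjusted p = 0.217). The factor gene Klf9 differed by 0.62, the kinase gene Sgk1 by 0.12 and the metallothionein genes Mt1 and Mt2 by -0.10 and -0.40, with overlap. Cdkn1a, for the cell cycle inhibitor p21, had all night arrays below all day arrays (-0.61 ± 0.09, adjusted p = 0.0814). Adipocyte markers had a median difference of 0.51 with 14 of 15 positive, in overlapping groups. Hepatocyte markers had one of 0.77 with 18 of 21 positive, also in overlapping groups. Over all genes 9015 of 18025 were positive. The part of these markers in the glucocorticoid-responsive list was not tested.

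The other lists had 0 genes past the limma threshold. Heat shock and cytosolic chaperone genes had a median of 0.08, with 21 of 22 positive and 4 at an unadjusted p under 0.05 in limma (9015 of 18025 and 10.3% over all genes). Of 3 cold-inducible genes, Rbm3 differed by 0.36 ± 0.10 without overlap, while the other 2 were negative and the list median was -0.02. Of 12 connexins 6 differences were positive and 6 negative, from -0.61 to 0.61, with a median of -0.03. Without overlap 1 connexin lay above the early day range and 1 below, against 3.01% and 3.20% of all genes. Gja1, which encodes the gap junction protein connexin 43 of bladder muscle, read -1.31 and -1.56 at CT0, -1.36 and -1.19 at CT4, -0.87 and -0.58 at CT12, and -0.67 and -0.84 at CT16. All its night arrays were higher, by 0.61 ± 0.10 (adjusted p = 0.121). In the nitric oxide, cGMP and prostaglandin list, Gucy1a1, for a subunit of the nitric oxide receptor, differed by -0.80 ± 0.12 (adjusted p = 0.0887) and Ptgs1, for a cyclooxygenase, differed by 0.55 ± 0.13, both without overlap. Ifit3, an interferon-induced gene, came closest to the threshold in the lists without a call, at 0.64 ± 0.08 (adjusted p = 0.0553), and Il15 differed by 0.71 ± 0.12 (adjusted p = 0.107). The interferon response list had 13 positive and 10 negative differences, with a median of 0.04. Chemokines and cytokines had 7 positive and 15 negative differences, with a median of -0.14. Cell cycle genes were negative for 24 of 30, against 9010 of 18025 over all genes, with a median of -0.23. Of the 30, 3 had an unadjusted p under 0.05 in limma, near the 10.3% of all genes. Mitochondrial respiratory chain genes had a median of 0.04. Smooth muscle markers had a median of 0.04 and urothelial markers one of -0.12.

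**Figure D4:**
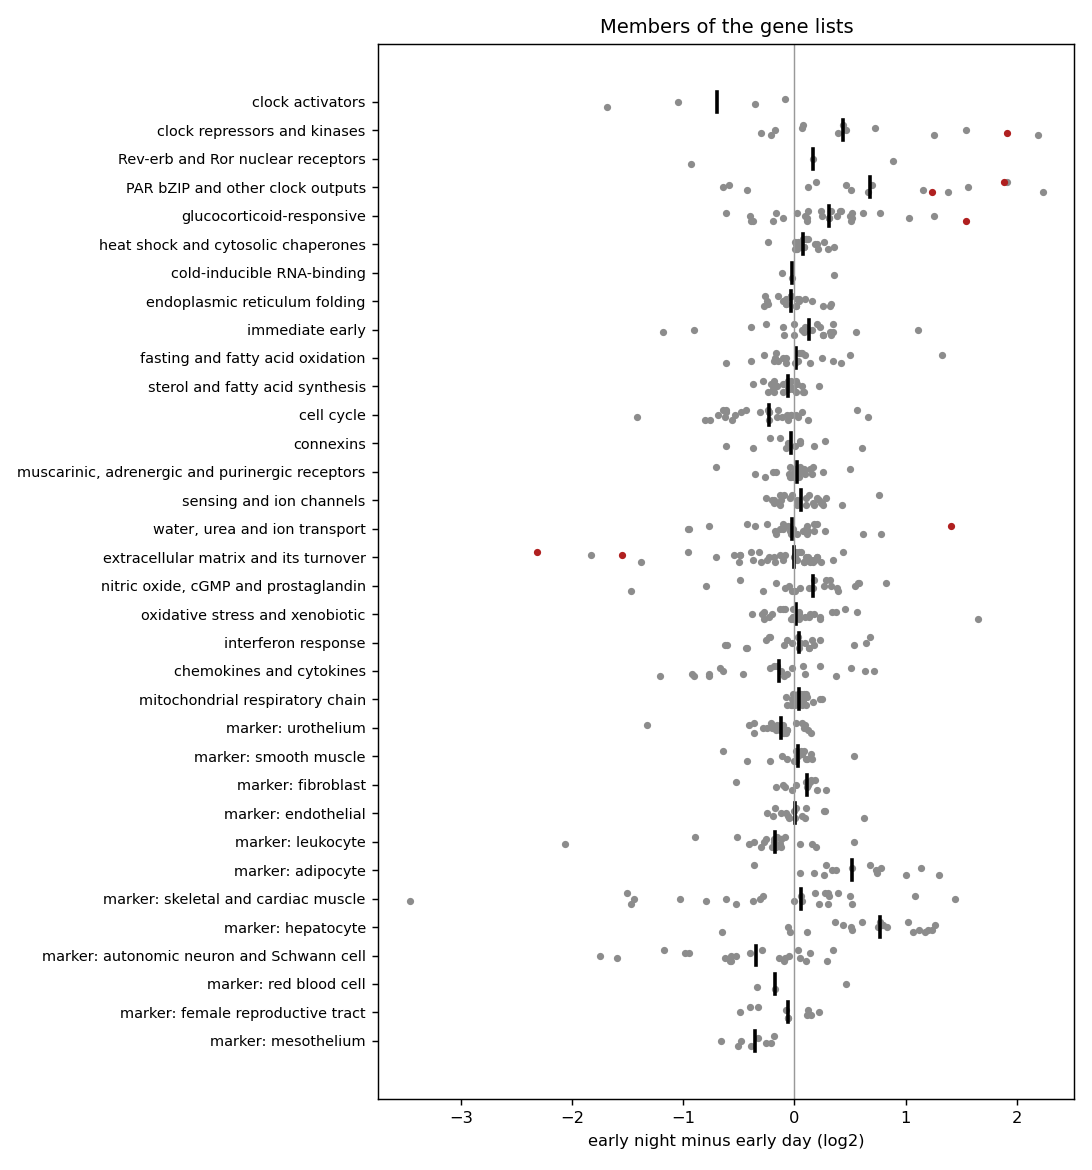
Early night minus early day difference (x axis, log2) of each member tested in the 34 gene lists, with the median of each list as a black bar and genes past the threshold in red. The medians farthest from 0 are 0.77 for hepatocyte markers, -0.70 for clock activators, 0.68 for clock outputs, 0.51 for adipocyte markers, 0.44 for clock repressors and kinases, -0.36 for mesothelial and -0.35 for neuron markers.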

How the data were processed

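Total RNA of whole bladder was hybridised to Agilent 1-colour arrays. Per the file headers, spot values in the deposited scanner files are intensity from Agilent Feature Extraction 10.5.1.1; they are not normalised between arrays. The authors' deposited value table holds log2 values; the submitters' processing notes name R 2.8.1, and its normalisation is not given in the sources used here. Its column medians were 8.70 to 8.72, and its scale was taken as log2 since its columns correlated at 0.979 to 0.982 with log2 scanner values; centring was not stated. It served as an alternative.

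Outlier spots were dropped, log2 signals averaged per probe and the 75th percentile subtracted. Of 41174 probes, 271 lacked a value on some array. Names came from RefSeq tables of GRCm38.p6 by accession (22912 probes), symbol (6552) or synonym (3058), and 8381 kept the file's name. Probe coordinates are mm7, for which an annotation was not used here. Each gene was its probe of highest mean level, tested where at least 4 of the 8 arrays had it well above background; 3557 of 18025 carry placeholder names.

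limma 3.58.1 (R 4.3.3) compared 4 arrays with 4, two-sided, with Benjamini-Hochberg adjustment over all genes and a threshold of 0.05. A fit with 1 mean per time tested (CT12 minus CT0) minus (CT16 minus CT4). Members and lists were chosen with earlier results of these data known. Named genes were the members of 4 clock lists, genes with a symbol past the threshold without overlap and well above background on all 8 arrays (up to 12 per direction), and for other lists up to 3 members past the threshold or else the 2 of lowest p, with genes past the test of the difference between pairs; not all are printed, and 1 gene past the threshold is counted but not reported here. Eln, Fkbp5, Klf9, Sgk1, Mt1, Mt2, Col1a1, Col1a2, Col3a1 and 9330159F19Rik fall outside this rule and were chosen after their values were seen. On simulated data with 200 changed genes among 18025, the pooled fit recovered 32.8%, 68.7% and 97.0% of log2 changes of 0.5, 1 and 2, and the test of the difference between pairs 0%, 2.99% and 59.1%. The simulated noise was independent between arrays, had the spread within the pooled groups and held no slide effect. For the test between pairs only the CT12 arrays were changed. The shares recovered are therefore no measure of power in the real arrays, where slide and group go together. The number of arrays limits the precision.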

Additional observations from a re-analysis of the deposited data

Results flagged for a closer look

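Smpdl3b had 1 early night array far from the others: CT16 replicate 2 stood at -0.71, while the other 3 lay between -0.28 and -0.20. The gap was 0.838 of the range of the 4 arrays, above Dixon's critical value. It was the only such case among 92 groups of 4 arrays examined, and chance alone would flag about 1 in 20. Without this array Smpdl3b was the 1 gene past the threshold. Its direction could not turn, since its groups do not overlap.

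Nr1d1 changed differently at the earlier and the later pair of times. The change from CT0 to CT12 exceeded that from CT4 to CT16 by 3.59 (log2; limma adjusted p = 0.0362). Its other probes gave pooled differences of -0.80 and -0.27, which do not measure this change between pairs. With every probe tested on its own in limma, only the probe used here passed for that change.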

How the results depend on the processing

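Leaving out any 1 array moved the count by over 1.5 times, and no slide held both groups. For early night minus early day, against 16 genes, the count was 0 without a filter on dim probes (4906 at an unadjusted p under 0.05 in limma), 8 with a mean per time (4 of the 16 shared), 33 with array weights, 65 with 6 time means on 12 arrays (14 of the 16 shared), and 0 with slide as a random block (correlation 0.18; 1004 unadjusted), where the unadjusted p of the 16 genes was at most 0.000213 and their adjusted p 0.109 to 0.227. Leaving out a time gave 2 (CT0) or 0 (CT4, CT12, CT16; 1100, 2775 and 1778 unadjusted). Without 1 array it was 0 to 10. Normexp gave 24, quantile 13, median scaling 19, and the authors' values 23 (78.3% higher against 62.5%), all within 1.5 times the count; 14, 13, 15 and 14 of the 16 genes were shared. All 16 genes kept their direction in every setting run. For genes whose groups do not overlap, leaving out an array or a time cannot turn the direction. With the replicate number as a block 3 genes passed, Cys1, Gal3st4 and Ppp1r3b; same-numbered arrays correlated at -0.02 to 0.36 in their deviations, over 0.1 for 5 of 6 pairs of times, short of the rule that every pair exceed it; the labels do not say what a number marks, so a pairing is not settled.

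For the difference between CT12 minus CT0 and CT16 minus CT4, against 1 gene, the count was 2 with normexp and with the authors' table, 8 with 6 time means, 0 without the filter (4164 unadjusted) and 0 with the replicate block (3098 unadjusted), and 0 to 13 without 1 array. Slide as a random block could not be run for it, since times lie within slides.

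Pooled differences not past the threshold turned sign; the main values were -0.93 for Nr1d1, -0.59 for Nfil3 and between -0.21 and 0.07 for the others. Leaving out CT4 gave Arntl2 0.1383, Csnk1d -0.02942 and Nr1d1 0.02983; leaving out CT16 gave Csnk1d -0.01759 and Fbxl21 0.02308; leaving out CT0 gave Nfil3 0.03794 and Timeless 0.09621. Without 1 array, Arntl2 ranged from -0.1756 to 0.0833 and Timeless from -0.2964 to 0.007498. The cause was not tested.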
